A study of Mus musculus with 10 samples.

Results

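Ucp2, Dennd1c, Syne3, Doc2b, Sypl2, Fndc3c1, Capn6, Car14, Crocc and Zfp217 are 10 genes whose transcripts were higher in cortical midline tissue of embryos with a conditional knockout of the corepressor gene Rcor2 than in that of controls. They were picked, from outside named gene families, for large rises in both conditional knockout libraries, and make up 10 of the 16338 genes in the RNA table and 10 of the 14324 tested (mean 10 normalized counts or more). Because their RNA values chose them, these values are described here without a test, and tests are kept for other genes and for chromatin data that took no part in the choice. The RNA came from midline cortex of C57/Bl6 mouse embryos at embryonic day 14.5. In the conditional knockout (cKO, 2 libraries) both Rcor2 alleles were floxed and the EMX1-iCRE recombinase was present, whereas the controls (CTL, 2 libraries) carried the floxed alleles alone. Emx1-driven Cre acts in the dorsal telencephalic lineage, so cells of other origin in the dissected tissue, such as meninges, vessels and immigrant interneurons, keep an intact Rcor2. Chromatin immunoprecipitation with sequencing (ChIP-seq) was made on wild-type midline of the same strain and age, with an Rcor2 antibody (2 libraries), a rabbit IgG without a specific target (2 libraries) and total input chromatin (2 libraries). Neither litters nor pooling of animals are stated, so spreads are those between libraries.

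Rcor2 belongs to the CoREST family of scaffold proteins, which join the histone demethylase LSD1 (Kdm1a) to histone deacetylases and are best known for keeping genes silent or low. Loss of such a repressor can raise direct targets, but transcripts also move when a tissue changes in its mix of cells. In bulk RNA, more cells of a type and more RNA per cell cannot be told apart.

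The RNA libraries held 28309925 and 29783893 reads (cKO replicates 1 and 2) and 30270598 and 27674987 reads (CTL replicates 1 and 2), as recovered from the deposited normalized counts. Rcor2 itself had 6363 and 6840 normalized counts in the cKO libraries, against 7901 and 7257 in the CTL libraries (log2 change -0.20, SE 0.057, limma adjusted p 0.0541). The floxed exons are unstated, so whole-gene counts need not show the deletion. By the transcripts of Xist and 4 Y-linked genes, replicate 1 of each genotype was male and replicate 2 female (Xist 49.4 and 21449 in cKO replicates 1 and 2, against 23.4 and 20334 in CTL replicates 1 and 2). The libraries also differed in their summed markers of cell types. The 10 meningeal and mesenchymal markers summed to 8969 and 2175 normalized counts in cKO replicates 1 and 2, against 1794 and 1625 in the CTL libraries, so cKO replicate 1 stood apart. The 10 genes are therefore given in each cKO library.

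On GRCm38.p6 the RefSeq spans are chr7:100493337-100499629 (Ucp2), chr17:57066051-57078529 (Dennd1c), chr12:104929933-105010587 (Syne3), chr11:75768270-75796060 (Doc2b), chr3:108210410-108226989 (Sypl2), chrX:106420041-106485577 (Fndc3c1), chrX:143802236-143827412 (Capn6), chr3:95897768-95905117 (Car14), chr4:141016637-141060615 (Crocc) and chr2:170108643-170151677 (Zfp217). Sypl2 and Car14 share chromosome 3, and Fndc3c1 and Capn6 the X. Counts were not divided by transcript length, so levels are compared between libraries and not between genes.

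For all 10 genes both cKO libraries lay above both CTL libraries, which held for 27.7% of tested genes. A rise that passed the limma test across the genome (adjusted p under 0.05) was found for 6.16% of tested genes, and a log2 change of at least 1 for 0.963%. Since the genes were picked on this contrast, nothing is read from these shares. Means in the cKO were 1.45 to 4.15 times those in CTL, and the lower cKO library was 1.41 to 3.58 times the higher CTL library. The 10 genes were not the largest rises of the table: Ucp2 ranked 17 by log2 change, Car14 ranked 52, Crocc 272 and Zfp217 610 among tested genes. Among called rises whose mean reached 50 normalized counts, the values next to Car14, the last of the genes above 2-fold, were 1.42 for Tnfaip6 above it and 1.36 for Islr below it.

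**Figure D1:**
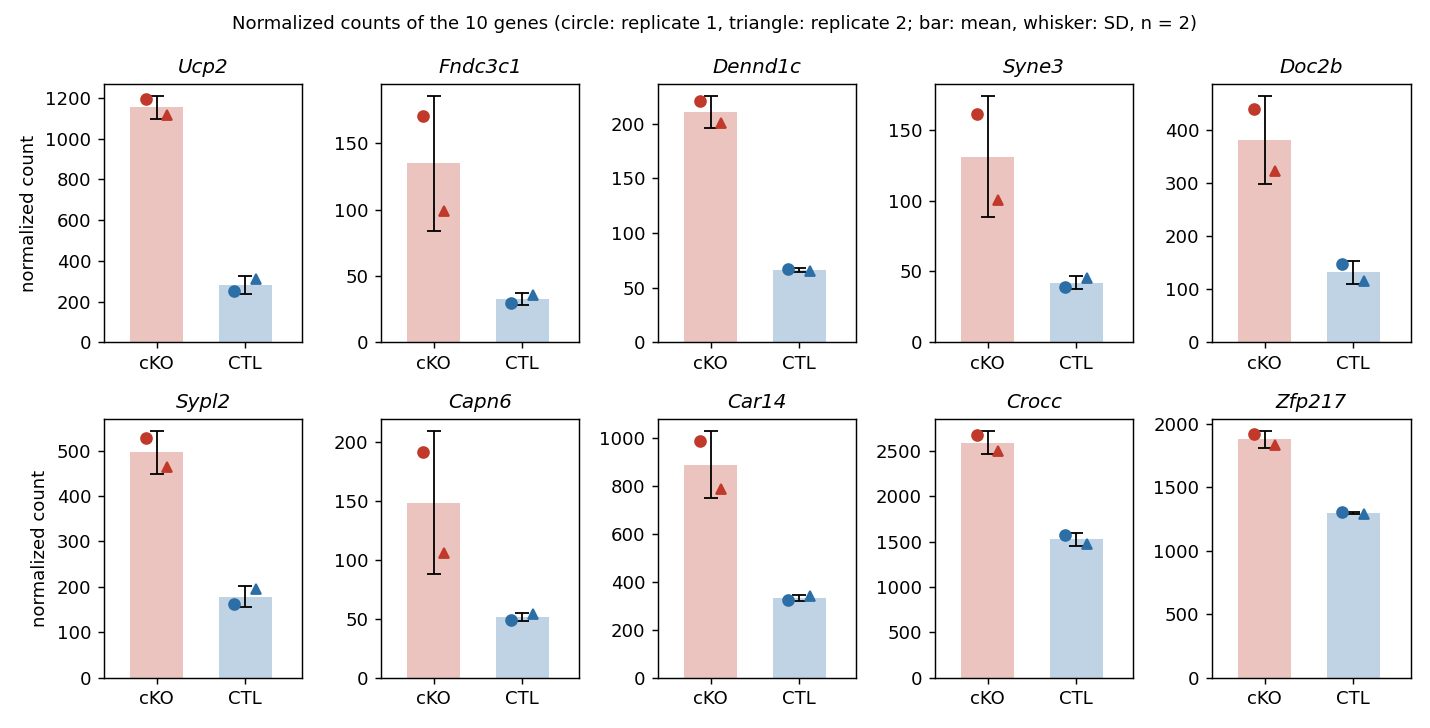
Normalized counts (vertical axes, each starting at 0) of the 10 genes in cKO (red, left) and CTL (blue, right) midline; circles are replicate 1, triangles replicate 2, bars the mean and whiskers the SD of 2 libraries. The groups do not overlap in any panel, and cKO replicate 1 lies above cKO replicate 2 in each.

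Ucp2 encodes a carrier of the inner mitochondrial membrane, in the same family as the thermogenic uncoupling protein Ucp1. It had 1193 and 1114 normalized counts in the cKO libraries, against 249.6 and 311.3 in the CTL libraries. The cKO libraries lay close together, at 4.11 times the CTL mean (1153 ± 55.9 against 280.5 ± 43.6, SD, n = 2 each; log2 change 2.04). In cKO replicate 2 alone the log2 change was 1.99. Myeloid cells are known for high Ucp2, and the 10 microglial and myeloid markers summed to 1640 and 1605 normalized counts in the cKO libraries, against 1748 and 1548 in the CTL libraries, so these sums overlapped between genotypes. Of these markers 1 rose, Mrc1 (log2 change 0.72, limma adjusted p 0.0258), a receptor of border macrophages, and 0 fell. With edgeR 1 was called higher, and with DESeq2 0. The part of myeloid cells in the Ucp2 rise was not tested.

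Promoter sequences are shown for Ucp2, the gene with the widest gap between genotypes (its lower cKO library at 3.58 times its higher CTL library), and for Car14 and Crocc, the genes that the authors named for a peak of the promoter class. Each is the 250 bases before a RefSeq transcript start (GRCm38.p6, the assembly of mm10), 5′ to 3′ on the gene's strand, with capitals for GC boxes (GGGCGG) and for GGACAG, the right part of the RE1 element that Rest reads, on either strand. Ucp2 (plus strand) lies at chr7:100493108-100493357, Car14 (minus strand) at chr3:95904686-95904935, and the 2 starts of Crocc (minus strand) at chr4:141060546-141060795 and chr4:141053662-141053911.
Ucp2: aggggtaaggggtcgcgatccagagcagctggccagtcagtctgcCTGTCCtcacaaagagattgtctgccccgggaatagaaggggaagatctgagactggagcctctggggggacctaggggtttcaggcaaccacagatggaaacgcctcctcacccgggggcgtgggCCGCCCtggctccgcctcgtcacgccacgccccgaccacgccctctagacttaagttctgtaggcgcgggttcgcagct
Car14: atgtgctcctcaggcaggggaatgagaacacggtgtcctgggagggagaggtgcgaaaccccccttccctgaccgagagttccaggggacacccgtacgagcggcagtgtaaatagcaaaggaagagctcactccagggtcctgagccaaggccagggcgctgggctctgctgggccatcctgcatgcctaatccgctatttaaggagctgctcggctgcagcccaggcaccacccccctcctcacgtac
Crocc, start 1: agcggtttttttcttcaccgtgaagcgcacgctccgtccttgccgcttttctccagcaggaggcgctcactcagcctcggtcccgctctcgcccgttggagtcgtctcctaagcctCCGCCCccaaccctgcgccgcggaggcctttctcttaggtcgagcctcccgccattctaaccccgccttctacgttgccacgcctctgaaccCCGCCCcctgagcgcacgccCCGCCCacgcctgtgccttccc
Crocc, start 2: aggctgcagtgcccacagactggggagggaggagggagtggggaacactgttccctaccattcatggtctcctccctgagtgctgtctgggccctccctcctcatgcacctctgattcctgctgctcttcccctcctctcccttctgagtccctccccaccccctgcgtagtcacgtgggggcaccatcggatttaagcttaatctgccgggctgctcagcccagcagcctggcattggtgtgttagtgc
The Ucp2 window holds 1 GC box and 1 GGACAG, the first Crocc window 3 GC boxes, and neither the Car14 window nor the second Crocc window holds either motif. The first Crocc window has 26 CpG dinucleotides and the second 4.

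A first-listed promoter window was found for 9 of the 10 genes in RefSeq, Doc2b being the exception. A GC box, on either strand, was in 7 of the 9 windows, against 60.0% of 10912 tested-gene promoters and 32.9% of all 27018 RefSeq promoters. GGACAG was in 4 of the 9, those of Ucp2, Dennd1c, Capn6 and Zfp217, against 19.5% of tested-gene promoters and 18.7% of all. The left RE1 part AGCACC was in 0 of the 9, against 13.5% of tested-gene promoters and 13.2% of all, and the joined core, AGCACC and GGACAG with NN between them, was in 0 of the 9, against 0.0825% and 0.0444%. Of the E-box forms, CACGTG was in the Sypl2 window (8.28% of tested-gene promoters, 6.05% of all), and CAGCTG in those of Sypl2 and Ucp2 (11.7% and 12.8%). The TATA box TATAAA was in 0 of the 9 windows, against 5.98% of tested-gene promoters and 13.0% of all. These matches describe letters in a short window and not binding.

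Doc2b and Sypl2 belong to families of the vesicle release machinery. Doc2b is a calcium sensor with C2 domains that promotes spontaneous and asynchronous transmitter release. Its counts were 439.1 and 322.0 in the cKO libraries, against 147.3 and 115.7 in the CTL libraries (log2 change 1.52). The cKO libraries differed from each other by 1.36 times, less than the 2.19-fold gap between the lower cKO and the higher CTL library. Sypl2 (mitsugumin-29), a relative of synaptophysin known from the triad junctions of skeletal muscle, had 528.6 and 462.9 in the cKO libraries, against 161.9 and 194.6 in the CTL libraries (log2 change 1.47). Of the 10 striated muscle markers 6 were in the table; they summed to 114.1 and 101.8 normalized counts in the cKO libraries, against 120.9 and 84.3 in the CTL libraries, so they overlapped. Of the 5 tested, 0 passed with limma, edgeR or DESeq2, and 0 had an unadjusted limma p under 0.05. Any part of muscle cells in the Sypl2 rise was not tested.

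Crocc, Syne3 and Capn6 are tied to the cytoskeleton. Crocc encodes rootletin, the coiled-coil protein of the ciliary rootlet and the linker between centrioles, and had 2677 and 2497 normalized counts in the cKO libraries, against 1576 and 1476 in the CTL libraries (log2 change 0.76). Its libraries lay close within each genotype. Syne3 encodes nesprin-3, which ties the nuclear envelope to intermediate filaments through plectin; it had 161.4 and 100.8 normalized counts in the cKO libraries, against 39.0 and 45.4 in the CTL libraries (log2 change 1.58). Capn6, a calpain that lacks the catalytic cysteine and is known to stabilize microtubules, had 191.3 and 105.7 normalized counts in the cKO libraries, against 48.8 and 54.1 in the CTL libraries (log2 change 1.45). For both Syne3 and Capn6 cKO replicate 1 lay well above cKO replicate 2, which itself lay above both CTL libraries. Of 10 multiciliated cell markers, 2 rose, Foxj1 (log2 change 0.41, limma adjusted p 0.0183) and Mcidas (log2 change 0.96, limma adjusted p 0.0454), and 0 fell, while edgeR and DESeq2 each called 1 higher. Gmnc (log2 change 0.32), Ccdc39 (-0.08), Ccdc40 (-0.02), Dnah5 (0.15), Dnah11 (0.07), Rsph1 (0.41), Tekt1 (0.28) and Hydin (0.14) did not pass. All 10 markers summed to 2217 and 2058 in the cKO libraries, against 1909 and 1844 in the CTL libraries. The part of multiciliated cells in the Crocc rise was not tested.

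Dennd1c, Car14, Zfp217 and Fndc3c1 have other roles. Dennd1c (connecdenn 3), an exchange factor for Rab GTPases of the endosomal pathway, had 221.1 and 200.6 normalized counts in the cKO libraries, against 67.3 and 64.9 in the CTL libraries (log2 change 1.66), with close replicates in both genotypes. Car14, a membrane-bound carbonic anhydrase with its active site outside the cell, had 988.2 and 789.8 in the cKO libraries, against 322.8 and 341.6 in the CTL libraries (log2 change 1.41). Zfp217, a zinc finger protein found in CoREST-LSD1-CtBP complexes, had 1923 and 1832 in the cKO libraries, against 1303 and 1293 in the CTL libraries (log2 change 0.53). It showed the smallest fold of the 10 genes but also the smallest spread within genotypes. Fndc3c1, a gene of fibronectin type III domain proteins on the X chromosome, had 170.7 and 98.8 in the cKO libraries, against 29.3 and 35.7 in the CTL libraries (log2 change 1.97). It rested on 30 to 166 reads per library, the lowest depth among the genes.

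Each of the 10 genes was higher in cKO replicate 1 than in cKO replicate 2. The same order was found for 48.0% of all tested genes, for 85.6% of the 882 called rises and for 11.6% of the 1188 called falls. For 7 genes the difference exceeded counting error, by the exact 95% interval on whole reads: Capn6 was 1.81 times as high in cKO replicate 1 (interval 1.42 to 2.32), Fndc3c1 1.73 times (1.34 to 2.23) and Syne3 1.60 times (1.24 to 2.07), with smaller ratios for Doc2b, Car14, Sypl2 and Crocc. The intervals of Ucp2, Dennd1c and Zfp217 held 1. In the CTL pair 9 intervals held 1 and that of Ucp2 lay below it. The genes had fewer reads in the CTL libraries, so intervals there are less able to exclude 1. Crocc was 1.07 times as high in replicate 1 in both pairs, with intervals of 1.01 to 1.13 (cKO) and 0.99 to 1.15 (CTL). The counts of intervals therefore do not compare the spread of the 2 pairs. Taken library by library, the median log2 change of the 10 genes over the CTL mean came to 1.74 for cKO replicate 1, with 1.27 for the other. Over all called rises these medians were 0.39 and 0.29.

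**Figure D2:**
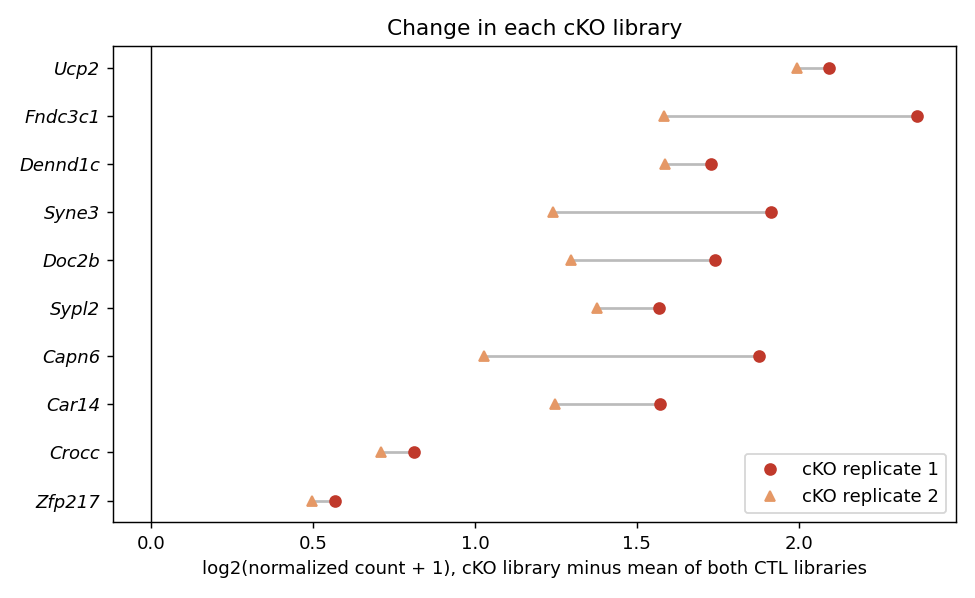
Log2 change (horizontal axis) of each cKO library against the mean of both CTL libraries, for each gene; circles are cKO replicate 1 and triangles cKO replicate 2. All points lie to the right of 0, and the pairs of Fndc3c1, Syne3 and Capn6 lie furthest apart, with Capn6 at 1.88 and 1.03.

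The cKO library that was higher for all 10 genes, replicate 1, was also the one with the high meningeal and mesenchymal sum. Of the 10 meningeal and mesenchymal markers 8 were tested, and 3 rose (Col1a1, Dcn and Pdgfra) and 0 fell with limma, while edgeR and DESeq2 each called 1 higher. None of the 10 was at 0 in all libraries, and Col3a1 had 2842 and 281.9 normalized counts in the cKO libraries, against 333.5 and 308.1 in the CTL libraries. In cKO replicate 2, where this sum was 2175 against 1794 and 1625 in the CTL libraries, the log2 changes were 1.99 for Ucp2, 1.59 for Dennd1c, 1.58 for Fndc3c1, 1.38 for Sypl2, 1.30 for Doc2b, 1.25 for Car14, 1.24 for Syne3, 1.03 for Capn6, 0.71 for Crocc and 0.50 for Zfp217. What part the other cells of cKO replicate 1 had in its higher values was not tested. Capn6 and Fndc3c1 are X-linked, and within the cKO the male library was the higher for both. In CTL the male and female libraries had 29.3 and 35.7 normalized counts for Fndc3c1 and 48.8 and 54.1 for Capn6. Both CTL intervals of male over female held 1 (0.48 to 1.39 for Fndc3c1 and 0.60 to 1.36 for Capn6). So few reads can show neither a difference by sex nor its absence. Sex and the mesenchymal sum cannot be told apart in the cKO pair. Markers of neurons also differed: 9 of 10 fell, with sums of 130652 and 144025 in the cKO libraries, against 185201 and 186439 in the CTL libraries, and radial glia markers, of which 5 of 10 rose, summed to 107620 and 106166 in the cKO libraries, against 98585 and 97142 in the CTL libraries. Ventral and interneuron markers fell in 4 of 8 tested cases. Those of thalamus and diencephalon rose in 3 of 7 (Lhx9, Lef1 and Otx2), while Tcf7l2, Ntng1, Foxp2 and Rora did not pass. The thalamus and diencephalon list summed to 7019 and 6176 in the cKO libraries, against 5216 and 4894 in the CTL libraries. Without Lhx9, its most abundant gene, the sums were 3544 and 3151, against 2823 and 2802. Hem and choroid plexus markers rose in 2 of 9 (Wnt8b and Rspo1), with Kcne2 at 0 in all libraries and Ttr, the defining choroid plexus transcript, at 9.25 and 5.87 in the cKO libraries, against 19.5 and 14.1 in the CTL libraries. Erythroid markers fell in 2 of 6. Of 10 endothelial and pericyte markers 0 passed with limma, edgeR or DESeq2, with 1 higher and 3 lower at an unadjusted limma p under 0.05.

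**Figure D3:**
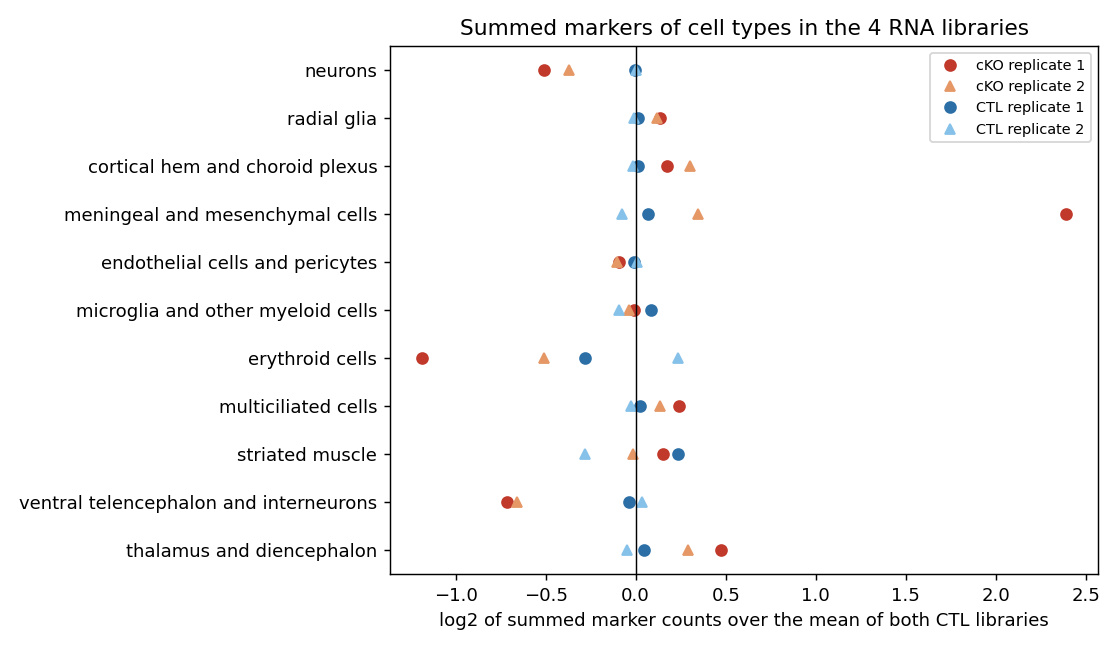
Summed normalized counts of each marker list, as log2 over the mean of the CTL libraries (horizontal axis), in the 2 cKO and the 2 CTL libraries. The mesenchymal sum of cKO replicate 1 (8969, against 2175 in cKO replicate 2 and 1794 and 1625 in CTL) is the point furthest from 0.

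In the authors' deposited table the log2 changes were 2.06 (SE 0.14) for Ucp2, 2.07 (SE 0.39) for Fndc3c1, 0.77 (SE 0.085) for Crocc and 0.55 (SE 0.089) for Zfp217. A second log2 column of the authors' deposited table, made by a method that is not stated, was nearer to 0 for each of the 10 genes, most so for those with few reads. It gave 1.67 for Ucp2, 1.13 for Car14, 1.06 for Sypl2, 0.95 for Doc2b, 0.89 for Dennd1c, 0.72 for Fndc3c1, 0.71 for Crocc, 0.62 for Syne3, 0.60 for Capn6 and 0.50 for Zfp217 in the authors' deposited table. In that column Crocc, with an average of 2026 counts there, stood beside Fndc3c1, with 82.5.

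Relatives of the 10 genes were followed with 10 lists, each holding the family or complex of 1 gene, without the gene itself. Of 98 tested relatives 9 rose and 12 fell, while 77 missed the threshold; their median log2 change was 0.03. Over all tested genes 6.16% rose, 8.29% fell and the median was -0.01. Without CTL replicate 1, 0 relatives rose and 1 fell; without CTL replicate 2, 0 rose and 1 fell; without cKO replicate 1, 4 rose and 9 fell; without cKO replicate 2, 20 rose and 15 fell. Without cKO replicate 1 the calls of Dennd1a, Dennd6b, Syne1, Syngr1, Capn10, Car12, Pcnt and Rreb1 ended (limma adjusted p 0.0541 to 0.156).

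Relatives of Doc2b and Sypl2 in the release machinery fell where limma called them, apart from Synpr. Of 12 Doc2 and C2-domain release factors 5 fell and 0 rose with limma (median -0.31). With edgeR 5 were called lower and 1 higher, and with DESeq2 5 lower and 0 higher. Unc13a, which primes vesicles, averaged 2668 ± 283.3 normalized counts in the cKO and 3657 ± 157.9 in CTL (SD, n = 2 each; log2 change -0.46, SE 0.073, limma adjusted p 0.00811). Rims1, a scaffold of the active zone, fell by 0.61 on the log2 scale (SE 0.10); Rph3a and Syt1 fell as well. Of 6 tested members of the synaptophysin family 3 fell and 1 rose (median -0.17). Syp, the synaptophysin of synaptic vesicles, had 1710 and 2000 normalized counts in the cKO libraries, against 2508 and 2484 in the CTL libraries (log2 change -0.43, SE 0.074, limma adjusted p 0.00956). Syngr1 and Syngr3 fell by 0.35 and 0.42 on the log2 scale, and Synpr rose by 0.45 (limma adjusted p 0.0453); with edgeR the adjusted p of Syngr1 was 0.0692 and 0 of the family were called higher. These falls came in libraries whose neuronal marker sum was lower, as given above, and Syt1 is in both lists. What part the mix of cells had in these falls was not tested.

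Relatives of the cytoskeletal genes are read against the 14.5% of tested genes that passed in either direction. Of 12 tested genes of the centrosome linker and rootlet 2 rose, Nek2, the kinase that splits the linker (log2 change 0.28, SE 0.057, limma adjusted p 0.0178), and Pcnt, the pericentrin scaffold (log2 change 0.20, limma adjusted p 0.0482), and 1 fell, Nin, which anchors microtubules (log2 change -0.32, limma adjusted p 0.0172). In the LINC complex and lamina list 0 of 11 rose and 1 fell with limma. The gene that fell was Syne1 (nesprin-1, log2 change -0.37, limma adjusted p 0.0392, but 0.160 with DESeq2 and 0.0541 with quantile scaling). With edgeR 0 of this list were called higher and 1 lower, and with DESeq2 1 higher and 0 lower. Of 10 tested calpains 0 rose and 1 fell, Capn10 (log2 change -0.24, limma adjusted p 0.0305, but 0.0832 with edgeR, 0.101 with DESeq2 and 0.0513 with quantile scaling). Capn11, chosen for mention after its values were seen, had 176.9 normalized counts in cKO replicate 1 and 3.91 in cKO replicate 2, against 6.83 and 2.16 in the CTL libraries, and did not pass.

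Relatives of the remaining genes were mixed. Of 15 tested genes of the DENN domain list 3 rose and 0 fell (median 0.17): Dennd2a by 0.25 (SE 0.052, limma adjusted p 0.0172), Dennd6b by 0.31 and Dennd1a by 0.19. With DESeq2 the adjusted p was 0.147 for Dennd6b and 0.0691 for Dennd1a. Of 10 tested carbonic anhydrases Car12, like Car14 a membrane enzyme that faces outward, had 161.4 and 137.0 normalized counts in the cKO libraries, against 101.4 and 94.1 in the CTL libraries, and passed as higher (log2 change 0.60, limma adjusted p 0.0385). That call ended with DESeq2 (adjusted p 0.141) and without cKO replicate 1 (limma adjusted p 0.156). The cytosolic Car2 fell by 0.83 on the log2 scale (limma adjusted p 0.0087). Of 15 Zfp217 partners in the CoREST-LSD1-CtBP complex 2 rose and 0 fell: Zfp516, a zinc finger protein that binds CtBP and LSD1 (3903 and 3450 normalized counts in the cKO libraries, against 2664 and 2660 in the CTL libraries; log2 change 0.46, SE 0.063, limma adjusted p 0.00597), and Rreb1 (504.9 and 390.5 in the cKO libraries, against 317.9 and 289.7 in the CTL libraries; log2 change 0.55, SE 0.13, limma adjusted p 0.0299, but 0.092 without cKO replicate 1). Kdm1a itself had a log2 change of -0.09. Neither uncoupling-type carriers (0 of 5 rose and 0 fell, with Slc25a11, the one with most counts, at -0.03) nor the Fndc3 relatives Fndc3a and Fndc3b (0.15 each) passed with limma, and edgeR and DESeq2 called 0 in both lists. At an unadjusted p under 0.05, 1 carrier and 1 Fndc3 relative were higher.

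**Figure D4:**
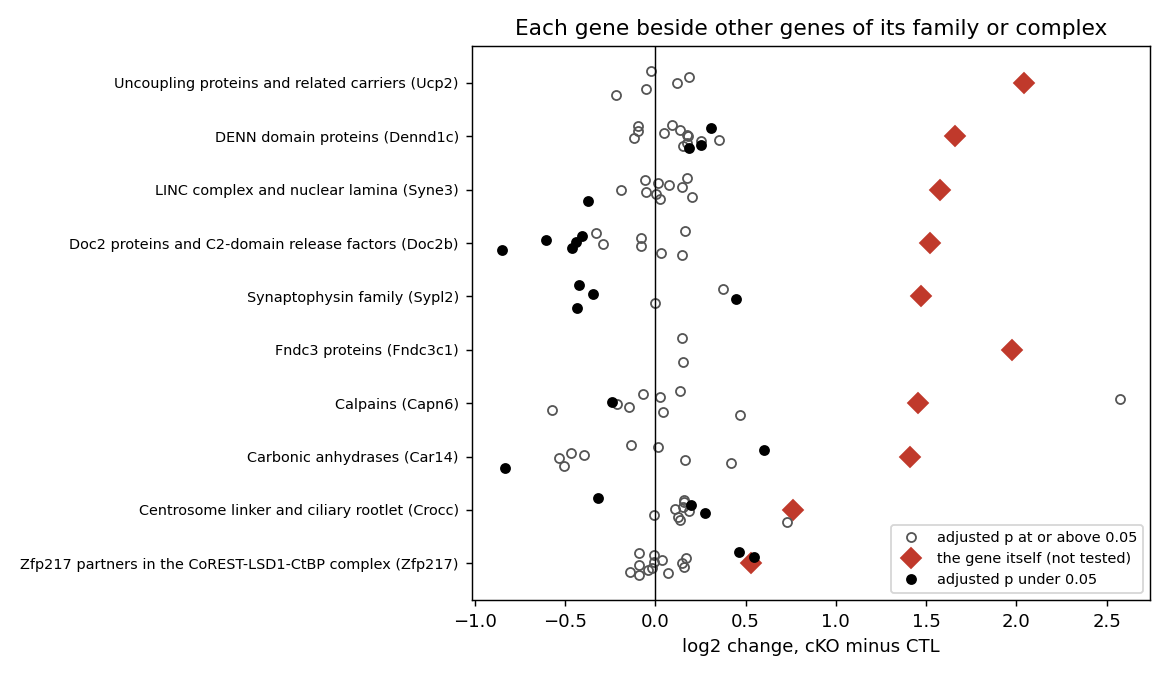
Log2 change, cKO minus CTL (horizontal axis), of each of the 10 genes (red diamonds, not tested) and of the tested genes of its family or complex (circles, filled where the limma adjusted p is under 0.05). The diamonds lie right of all filled circles except in the Zfp217 row, where Rreb1 lies at 0.55 against 0.53 for Zfp217; the open circle at 2.57 is Capn11.

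Genes next to the 10 on the chromosome were compared in the same fit. Taking the nearest tested gene on either side in the RefSeq order, 3 of 20 neighbours rose and 1 fell, while 16 missed the threshold (median log2 change 0.08), beside 6.16% and 8.29% of tested genes. The neighbours that rose were Clmn, 64.8 kb from Syne3 (370.2 and 293.6 normalized counts in the cKO libraries, against 196.0 and 231.3 in the CTL libraries; log2 change 0.63, SE 0.14, limma adjusted p 0.0252, but 0.0768 without cKO replicate 1), Mfap2, a microfibril protein gene 0.66 kb from Crocc (log2 change 0.37, SE 0.063, limma adjusted p 0.00963), and Atxn7l2, which overlaps Sypl2 (log2 change 0.23, limma adjusted p 0.0411, but 0.0821 with edgeR and 0.100 with DESeq2). Dcx (doublecortin, of migrating neurons), 28.4 kb from Capn6, fell (log2 change -0.41, SE 0.052, limma adjusted p 0.0054). The neighbours of Ucp2, Dennd1c, Doc2b, Fndc3c1, Car14 and Zfp217 did not pass. Without either control in turn 0 neighbours rose, without cKO replicate 1 only Mfap2 did (limma adjusted p 0.00806), and without cKO replicate 2 the count was 6. Atxn7l2 shares 168 bases with Sypl2 and Aph1a 825 bases with Car14, and whether counting used strand is unstated, so reads in these stretches cannot be assigned; Aph1a had 545.0 and 538.3 normalized counts in the cKO libraries, against 576.3 and 553.5 in the CTL libraries. Syne3 and Doc2b overlap RefSeq noncoding genes that were not analysed here.

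Over the 4 libraries, the tested genes nearest to the mean profile of the 10, by Euclidean distance of centred log2 values, were Emilin2, Opn1sw, Elf4, Flnc and Svep1, at distances of 0.18 to 0.27. Of the 10 genes, Car14 lay nearest to their mean, at 0.044, and Zfp217 furthest, at 0.93. The median distance of the other tested genes was 1.49. Emilin2, an extracellular matrix glycoprotein, had 121.3 and 98.8 normalized counts in the cKO libraries, against 44.9 and 43.2 in the CTL libraries. Flnc, an actin crosslinker, had 4620 and 3325 in the cKO libraries, against 1730 and 1664 in the CTL libraries. Opn1sw had only 18.5 and 17.6 in the cKO libraries, against 5.85 and 6.49 in the CTL libraries. Its CTL values lay below the mean of 10 normalized counts asked of tested genes. With 4 libraries such likeness is only a description. It rests on 4 values per gene, and the distance takes in the size of a change as well as the order of the libraries.

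On chromatin, the authors named 4 of the 10 genes for a peak, Syne3, Zfp217, Car14 and Crocc, with 6 peaks in all. Of tested genes 20.9% were so named, and of the called rises 36.1%. For a promoter peak 2 of the 10 were named, Car14 and Crocc, against 10.5% of tested genes. With 10 genes, 1 gene more or less moves such a share widely, and nothing particular is read from them. Syne3 had 3 peaks, a number reached by 2.65% of tested genes. Peaks were called by the authors on Rcor2 against IgG, so a higher Rcor2 than IgG height at a peak is how it was found; the comparison with input took no part in the choice of the 10 genes, although the peaks were found for their high Rcor2 signal.

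The strongest of these peaks lies inside Syne3, at mm10 chromosome 12, 104964653 to 104965291, 33.8 kb downstream of the listed start. That start lies within the RefSeq span of this minus-strand gene, which reaches further upstream, to 105010587. Its height was 32 and 42 in the Rcor2 libraries, against 6 and 4 with IgG and 17 and 10 in input. Median heights over all 6995 peaks, not scaled for depth, were 13 and 19 in the Rcor2 libraries and 13 and 12 in input. The authors' fold enrichment over IgG was 9.82, rank 55 of 6995 peaks, against a median of 4.0. Rcor2 exceeded input by 1.42 on the log2 scale (SE 0.41, limma adjusted p 0.042), a call that 1.56% of all peaks reached. The call ended with heights divided by the library median (adjusted p 0.142), with a replicate block (0.133), and without either Rcor2 or either input library (0.294 to 0.812).

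The other Syne3 peaks differed from it. The peak at 104939687 to 104939863 had heights of 16 and 16 with Rcor2, 6 and 6 with IgG and 17 and 14 in input, so Rcor2 and input overlapped (log2 difference 0.05, limma adjusted p 0.966). The peak at 104977412 to 104977611 had 15 and 20 with Rcor2, 10 and 3 with IgG and 8 and 5 in input (log2 difference 1.32, SE 0.49, limma adjusted p 0.146). Their enrichments over IgG, 3.46 and 2.93, ranked 5698 and 6736 of 6995. Heights of so few reads leave wide errors, and a difference from input was not detectable at this depth for these peaks.

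The promoter-class peak of Crocc, at mm10 chromosome 4, 141051630 to 141051844, lies inside the gene, 1.93 kb downstream of its second listed start and 8.82 kb from the first. Its heights were 15 and 17 with Rcor2, 3 and 4 with IgG and 8 and 7 in input (log2 difference from input 1.00, SE 0.53, limma adjusted p 0.328). The test did not pass, and the median log2 difference from input over all peaks was 0.38. The Car14 peak, at chromosome 3, 95906401 to 95906563, lies 1.28 kb from the gene's RefSeq span, on the side of its start; its heights were 11 and 17 with Rcor2, 5 and 4 with IgG and 9 and 8 in input (log2 difference 0.63, limma adjusted p 0.529). The Zfp217 peak, classed as distal, lies 32.2 kb from the gene's RefSeq span, on the side of its start, at chromosome 2, 170183893 to 170184125, with 9 and 20 with Rcor2, 3 and 2 with IgG and 7 and 10 in input, so Rcor2 and input overlapped (log2 difference 0.63, limma adjusted p 0.588). Neither the Car14 nor the Crocc peak overlaps the promoter windows printed above.

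**Figure D5:**
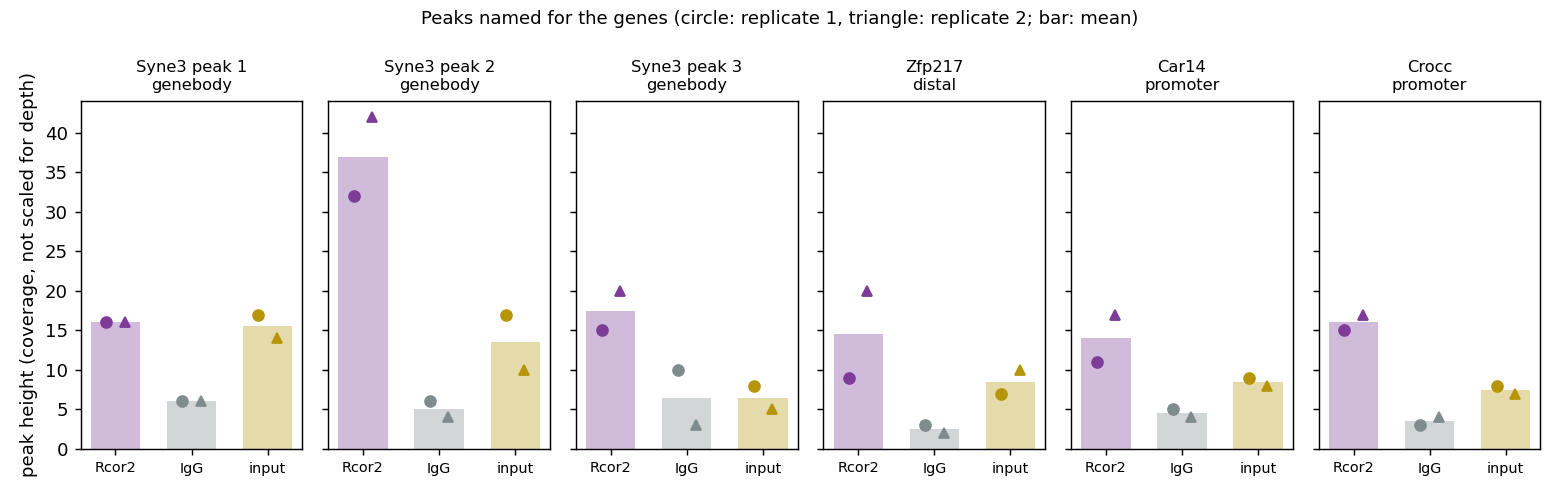
Height of coverage (vertical axis, not scaled for depth) at the 6 peaks named for Syne3, Zfp217, Car14 and Crocc, with Rcor2 antibody (purple), IgG (grey) and in input (gold); circles are replicate 1, triangles replicate 2 and bars means of 2 libraries. The second Syne3 peak, with 32 and 42 in the Rcor2 libraries, stands above the others, whose Rcor2 heights lie between 9 and 20.

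The other 6 genes had no peak named for them and none inside their RefSeq span. The nearest peak lay 24.5 kb from Doc2b and was named for Ywhae, 29.6 kb from Sypl2 for Psma5, and 74.9 kb from Dennd1c for Clpp. From Ucp2 the nearest peak lay 232.0 kb away and was named for Fam168a. For the X-linked Capn6 and Fndc3c1 it lay 736.6 and 2262 kb away. A peak list holds what passed the authors' caller, so the absence of a peak is no measure of the signal there.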

How the data were processed

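RNA-seq and ChIP-seq of mouse midline cortex were read from the deposited tables. Trim Galore, HISAT2 2.1.0 and the mm10 build are listed, with no role, in the submitters' processing notes. The sources used here do not state the gene counter, annotation, strand use or peak settings. Per the file headers, RNA values are normalized counts (a signal); 100% of them were whole multiples of 1 step per library (tolerance 0.01 reads), which gave whole reads. Log2 fold changes, standard errors, p-values and a test score sit beside them in the authors' deposited table. Per the file headers, peak heights (signal, in whole numbers, unscaled), pileup and fold enrichment (a ratio over IgG) come from the authors' deposited peak table.

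The 14324 of 16338 genes whose mean reached 10 normalized counts were fitted with limma-trend (limma 3.58.1, R 4.3.3) on log2(value + 1), two-sided, without a block, and called at a Benjamini-Hochberg adjusted p under 0.05; fold changes on this scale understate those of low genes. Residual degrees of freedom were 2, and 0.333 is the smallest p of an exact permutation test with 2 libraries a group. Peaks were fitted likewise over all 6995, with the 3 ChIP groups in 1 model. Alternatives were TMM and quantile scaling, a pseudocount of 5, no filter, edgeR 4.0.16 and DESeq2 1.42.0 on whole reads, a replicate block, median-scaled heights and leaving out each library. Intervals of ratios of reads are exact 95% binomial (Clopper-Pearson) and cover counting error only. RefSeq positions (GRCm38.p6) were known for 99.7% of tested genes. Peaks with 2 gene names were counted for both. Figures used matplotlib 3.10.9.

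Named were the 10 genes, Rcor2, up to 3 called genes of each family list by adjusted p (else the most abundant), called neighbours and the 5 nearest profiles; a few others are named beside counts of 5 or fewer, after their values were seen. The genes and lists were chosen with earlier results of these data known. A gene that the rule names is not reported here.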

Additional observations from a re-analysis of the deposited data

How the results depend on the processing

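The 10 genes were chosen on their RNA values, so a kept sign says nothing of their stability. Their median log2 change was 1.50, with a range of 1.27 to 1.74 over the fits that left out 1 library. The counts of called genes depended on the libraries: leaving out 1 in turn, 58 to 1532 genes were called higher and 82 to 1921 lower (882 and 1188 with all), 0 to 20 relatives higher and 1 to 15 lower (9 and 12), and 0 to 6 neighbours higher and 0 to 1 lower (3 and 1). Without 1 library the lone sample of its group is assumed to vary like the other group. With no low-value filter 5 relatives were called higher. edgeR on whole reads called 815 genes higher and 927 lower, and DESeq2 747 and 827. Quantile scaling gave 858 and 895, and TMM scaling 962 and 1049.

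Same-numbered RNA libraries deviated together (correlation across genes 0.24, 2 pairs) and share their sex. Their column headers also carry consecutive sample numbers, but no label states a pairing. With a replicate block 895 genes were called higher and 1181 lower; 6 relatives rose and 13 fell, and Dennd1a, Dennd6b, Pcnt and Opn1sw did not pass. Slc25a11, near 0 with all libraries, changed sign, with log2 changes of -0.078 to 0.026 when 1 library was left out. Rcor2 passed without cKO replicate 2 (limma adjusted p 0.0096) and with DESeq2 (0.0488).

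For Rcor2 against input, 109 peaks were called higher. The count was 0 with heights divided by the library median, 364 with a pseudocount of 5, 33 with a replicate block, and 0 to 280 without 1 library. The first Syne3 peak changed sign with median scaling (-0.26) and when 1 library was left out (-0.082 to 0.18). Of the 10 genes, those named for a peak numbered 4; with peaks above the median enrichment 1 was so named, and with promoter peaks alone 2. Heights of a few reads limit every peak result.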
